A study of Mus musculus with 4 samples.

Results

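The 9 genes described here encode transcription factors that build and maintain the macrophage lineage, and they were taken as the rows whose gene symbol was Spi1, Runx1, Cebpa, Cebpb, Irf8, Maf, Klf2, Klf4 or Klf6. All 9 were found among the 13834 genes of the table, each on 1 row. RNA was sequenced from 4 samples of thioglycolate-elicited mouse peritoneal macrophages, 2 named Dnmt1fl/fl, whose genotype label reads wt and which carry floxed Dnmt1 alleles, and 2 named Dnmt1KO, a knockout restricted to myeloid cells. According to the study's reporting summary, Dnmt1KO mice carry the same floxed alleles together with Cre recombinase driven by the LysM promoter. As background, that promoter is active in neutrophils and monocytes as well as in macrophages. Thioglycolate draws leukocytes into the abdominal cavity, and the cells were otherwise untreated. The labels do not say whether samples of a genotype came from separate mice, so p-values measure only the spread between these samples.

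Macrophage identity is set by a small group of factors that act in sequence. Runx1 is required for the emergence of blood stem cells and opens chromatin at myeloid genes, including Spi1, and Spi1 encodes PU.1, the ETS factor that marks most macrophage enhancers. Cebpa drives progenitors toward the granulocyte and monocyte lines, Cebpb supports monocyte survival and inflammatory gene expression, and Irf8 turns progenitors toward monocytes and dendritic cells and away from neutrophils. Maf helps to hold mature macrophages out of the cell cycle. Klf2 restrains inflammatory activation, Klf4 supports monocyte differentiation and alternative activation, and Klf6 favours inflammatory activation. Dnmt1 copies CpG methylation onto newly made DNA, and the promoters of several of these genes are rich in CpG.

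The 250 bases upstream of the transcription start were available from RefSeq on GRCm38.p6 for 7 of the 9 factors, in 9 windows. Spi1 and Maf were not matched. The windows held from 2 to 41 CpG, and 7 of the 9 held more than the median of 15 CpG over the 12570 windows of genes tested here. Cebpb had the most CpG of the members' windows, Klf4 followed with 32, and Cebpa, the closest relative of Cebpb, held 22. These 3 windows are shown because Cebpb and Klf4 had the largest genotype differences of the 9 factors and Cebpa is the family member with which Cebpb is compared. They lie at chr2:167688665-167688914 on the plus strand, chr4:55532476-55532725 on the minus strand and chr7:35119043-35119292 on the plus strand, and they are written 5′ to 3′ with every CpG in capitals.
Cebpb: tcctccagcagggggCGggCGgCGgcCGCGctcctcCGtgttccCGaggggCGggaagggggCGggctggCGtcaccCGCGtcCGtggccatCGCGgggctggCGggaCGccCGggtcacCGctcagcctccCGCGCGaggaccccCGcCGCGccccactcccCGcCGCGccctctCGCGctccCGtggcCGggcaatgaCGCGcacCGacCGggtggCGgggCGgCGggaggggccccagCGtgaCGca
Klf4: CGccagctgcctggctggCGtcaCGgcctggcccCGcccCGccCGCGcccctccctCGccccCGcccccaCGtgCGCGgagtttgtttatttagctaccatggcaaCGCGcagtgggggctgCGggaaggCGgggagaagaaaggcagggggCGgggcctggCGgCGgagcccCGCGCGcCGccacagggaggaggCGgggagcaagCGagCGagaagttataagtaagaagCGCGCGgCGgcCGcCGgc
Cebpa: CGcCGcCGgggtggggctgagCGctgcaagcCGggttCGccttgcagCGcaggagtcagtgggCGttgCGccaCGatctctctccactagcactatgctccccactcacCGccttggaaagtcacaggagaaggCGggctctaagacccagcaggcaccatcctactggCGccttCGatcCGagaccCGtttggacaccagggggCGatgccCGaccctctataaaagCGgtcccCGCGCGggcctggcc
The Cebpb window was 81.6% G and C, the Klf4 window 74.0% and the Cebpa window 66.4%, against a median of 59.6% over windows of genes tested. The remaining windows held 29 CpG in Klf2, 21 in Klf6, 29 and 8 at the starts of Irf8, and 27 and 2 at the starts of Runx1. The letters GGGCGG, the core of the box bound by Sp and KLF factors, were searched on both strands, counting overlapping matches, and were found in 5 of the 9 windows, 5 times in Cebpb and 4 times in Klf4. They occurred in 32.7% of all 32851 windows and in 56.4% of windows of genes tested. TATAAA was found in 2 of the 9 windows, in Cebpa and at 1 start of Irf8, and occurred in 6.5% of windows of genes tested. The ETS-like letters GAGGAA were found in 1 window, at a start of Runx1, and GGAAGT in 0, against 22.8% and 23.9% of windows of genes tested. DNA methylation was not measured in these samples.

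The Dnmt1 transcript was measured first, as a check of the labels. It reached 86.6 and 67.0 CPM (read counts relative to library size, scaled between samples by TMM, edgeR's correction for library composition) in Dnmt1fl/fl replicates 1 and 2, and 37.0 and 42.7 CPM in Dnmt1KO replicates 1 and 2. Both Dnmt1KO samples lay below both Dnmt1fl/fl samples, with a log2 fold change of -0.95 (SE 0.24) and a 95% interval from -1.54 to -0.35. In edgeR's quasi-likelihood test the unadjusted p was 0.0084 and the adjusted p 1.00, and 0.279% of genes tested had an unadjusted p under 0.05. Totals ran from 20228071 to 24198943 counts per sample, and each factor had between 920 and 12297 counts in every sample. Of the 10 macrophage markers fixed for these cells all were in the table, with summed levels of 36134, 35057, 18258 and 22198 CPM in the order Dnmt1fl/fl replicates 1 and 2 and Dnmt1KO replicates 1 and 2. Lyz2, which encodes lysozyme and whose promoter drives the Cre, made up most of that sum, with 29531, 28587, 11351 and 15745 CPM, and the other 9 markers summed to 6604, 6470, 6907 and 6453 CPM. Dnmt1KO replicate 1 stood apart in markers of other cells: its 8 neutrophil markers in the table summed to 763 CPM against 194 to 262 CPM in the other samples, and its 7 B cell markers to 130 CPM against 323 to 531 CPM. Csf3r, at 158, 137, 169 and 159 CPM, made up most of the neutrophil sum in those other samples. S100a9 was at 5.55, 60.5, 320 and 8.35 CPM. It, S100a8, Cxcr2 and Ly6g were also higher in Dnmt1fl/fl replicate 2 than in replicate 1, and Csf3r, Mmp8, Retnlg and Ltf were not. Of the neutrophil list, Ngp, Camp, Mpo and Elane were not among the genes of the table. In bulk RNA, fewer cells of a type and less RNA per cell cannot be told apart.

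None of the 9 factors separated the genotypes. The values of the genotypes overlapped in each, so that 0 of 9 stood apart, against 16.7% of the 12542 genes tested. In edgeR's quasi-likelihood test 0 of 9 had an adjusted p under 0.05, as did 0.00% of genes tested, with 0 genes called by limma-voom and 1, not a member, by DESeq2. At an unadjusted p under 0.05, edgeR called 0 of 9 factors and 0.279% of genes tested. A log2 fold change of at least 0.2 in either direction, the limit of the study, was reached by 2 of 9, Cebpb and Klf4, and by 41.5% of genes tested. These were 5206 genes, whereas the study's own shorter list holds 2749, of the members only Klf4, so the calls are not alike. Why they differ was not tested. Under 6 of 10 alternatives that kept all samples Cebpb did not reach that limit, and with a trend against transcript length removed its log2 fold change was 0.13 and that of Runx1 0.25. Leaving out 1 library moved the count of 2 to 4 without Dnmt1KO replicate 1, where 42.1% of genes tested reached the limit, to 5 without Dnmt1KO replicate 2 (72.4%), to 4 without Dnmt1fl/fl replicate 1 (45.2%) and to 5 without Dnmt1fl/fl replicate 2 (55.0%). The median log2 fold change of the 9 factors was 0.05, and that of all genes tested was 0.0046.

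**Figure D1:**
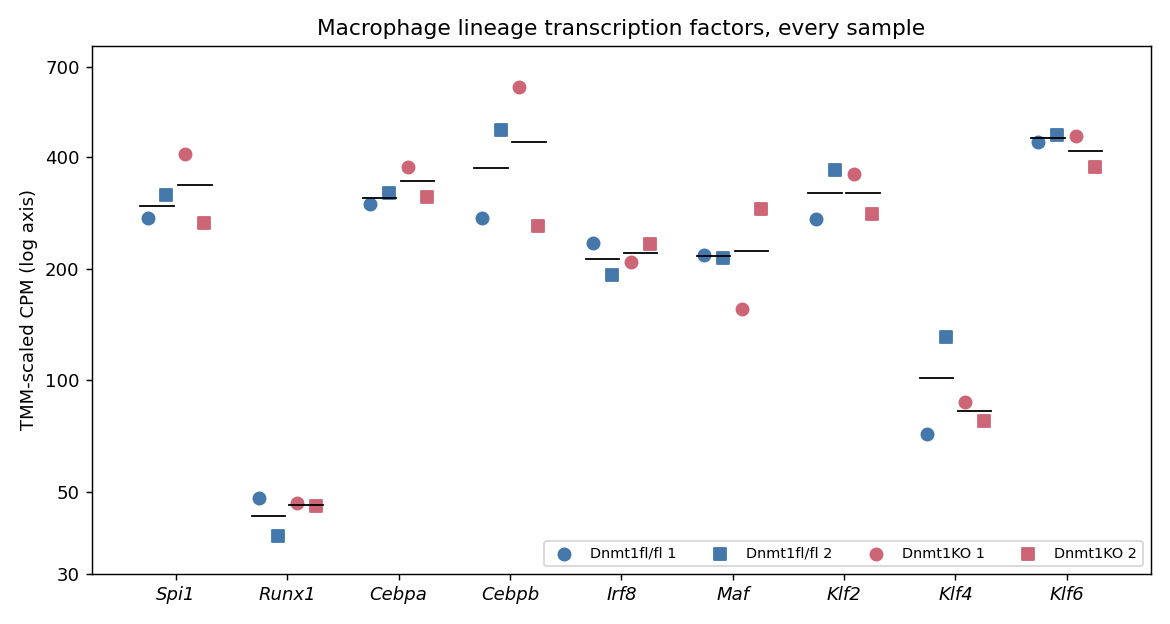
TMM-scaled CPM of each factor in each sample, on a log axis, with Dnmt1fl/fl in blue and Dnmt1KO in red, circles for replicate 1, squares for replicate 2 and a black line at the mean of 2 samples. The genotypes overlapped for all 9 factors, and Cebpb, Maf and Klf4 had the widest spread between samples of a genotype.

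Spi1 lay at 275 and 317 CPM in Dnmt1fl/fl and at 408 and 266 CPM in Dnmt1KO. The highest and the lowest sample were thus both Dnmt1KO. The log2 fold change was 0.19 (SE 0.29), with a 95% interval from -0.53 to 0.90 and an adjusted p of 1.00 in edgeR's quasi-likelihood test, and without Dnmt1KO replicate 1 it was -0.16. Runx1, which acts upstream of Spi1 in blood development, lay at 48.0 and 37.9 CPM in Dnmt1fl/fl and at 46.5 and 45.8 CPM in Dnmt1KO. The Dnmt1KO samples were nearly equal and lay between the Dnmt1fl/fl samples. The log2 fold change of Runx1 was 0.10 (SE 0.22), with a 95% interval from -0.44 to 0.65, and it was -0.05 without Dnmt1fl/fl replicate 2.

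Cebpa lay at 299 and 321 CPM in Dnmt1fl/fl and at 376 and 313 CPM in Dnmt1KO. It was the only factor whose genotype difference exceeded the pooled SD of its replicates, 0.15 against 0.14 on the log2 scale, and Dnmt1KO replicate 2 nevertheless lay below Dnmt1fl/fl replicate 2. Its 95% interval ran from -0.42 to 0.73, and the log2 fold change was 0.01 without Dnmt1KO replicate 1 and 0.28 without Dnmt1KO replicate 2. With the length trend removed, the genotypes of Cebpa no longer overlapped, as was so for 18.6% of all genes in that setting. Cebpb lay at 274 and 473 CPM in Dnmt1fl/fl and at 621 and 261 CPM in Dnmt1KO. The Dnmt1KO samples differed 2.38-fold and enclosed both Dnmt1fl/fl samples, which themselves differed by 0.79 on the log2 scale at the 91.2th percentile of genes tested. The log2 fold change of Cebpb was 0.24 (SE 0.49), with the widest 95% interval of the 9 factors, from -0.97 to 1.45. It was -0.52 without Dnmt1KO replicate 1, 0.73 without Dnmt1KO replicate 2, -0.10 without Dnmt1fl/fl replicate 1 and 0.70 without Dnmt1fl/fl replicate 2. The Cebpb exon shares 312 bases, or 20.7% of its length, with Tmem189 on the opposite strand, and whether counting used strand is not stated, so reads of that stretch are uncertain. Tmem189 was at 278, 272, 399 and 266 CPM, highest in Dnmt1KO replicate 1 as Cebpb was, but not raised in Dnmt1fl/fl replicate 2.

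Irf8 lay at 234 and 192 CPM in Dnmt1fl/fl and at 208 and 234 CPM in Dnmt1KO. Its highest sample exceeded its lowest by 1.22-fold, the narrowest range of the 9 factors. The log2 fold change was 0.05 (SE 0.23), with a 95% interval from -0.53 to 0.63, and it turned negative, at -0.08 and -0.03, without Dnmt1fl/fl replicate 2 and without Dnmt1KO replicate 2. Maf lay at 218 and 214 CPM in Dnmt1fl/fl and at 156 and 291 CPM in Dnmt1KO. The Dnmt1fl/fl samples were nearly equal, and the Dnmt1KO samples lay on either side of them and differed 1.86-fold, in the opposite order to Spi1 and Cebpb. The log2 fold change of Maf was 0.05 (SE 0.34), with a 95% interval from -0.80 to 0.89. It was 0.42 without Dnmt1KO replicate 1 and -0.47 without Dnmt1KO replicate 2.

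All 3 Krüppel-like factors were highest in Dnmt1fl/fl replicate 2. Klf2 lay at 272 and 370 CPM in Dnmt1fl/fl and at 361 and 281 CPM in Dnmt1KO, with means of 321 ± 69.5 and 321 ± 56.8 CPM (SD, n = 2 each). Its log2 fold change was -0.0017 (SE 0.27), with a 95% interval from -0.68 to 0.68. It was 0.24 without Dnmt1fl/fl replicate 2 and 0.17 without Dnmt1KO replicate 2, and -0.21 and -0.20 without the other replicate of each. Klf4 lay at 71.7 and 131 CPM in Dnmt1fl/fl and at 87.2 and 77.7 CPM in Dnmt1KO, so that both Dnmt1KO samples lay between the Dnmt1fl/fl samples. The log2 fold change of Klf4 was -0.30 (SE 0.33), with a 95% interval from -1.13 to 0.53, and its sign rested on Dnmt1fl/fl replicate 2, without which the value was 0.21. Klf6 lay at 440 and 461 CPM in Dnmt1fl/fl and at 457 and 376 CPM in Dnmt1KO. Its log2 fold change was -0.11 (SE 0.23), with a 95% interval from -0.69 to 0.47, and it was 0.02 without Dnmt1KO replicate 2.

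**Figure D2:**
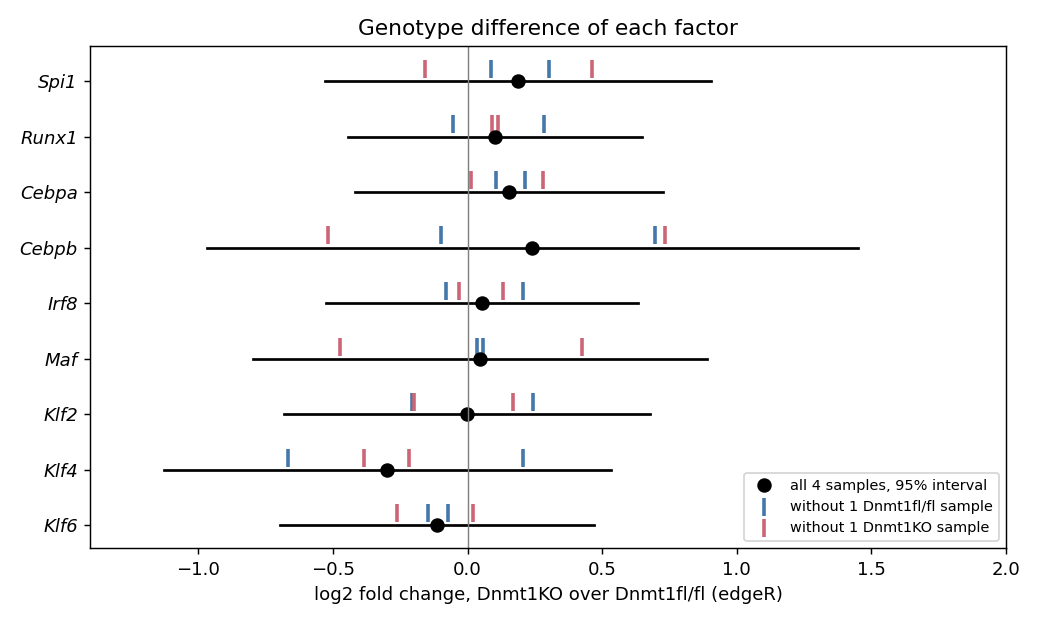
Log2 fold change of each factor, Dnmt1KO over Dnmt1fl/fl, from edgeR, with black dots for all 4 samples and lines for the 95% interval. Ticks give the values with 1 Dnmt1fl/fl sample left out in blue or 1 Dnmt1KO sample left out in red, and all 9 intervals hold 0.

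Samples of the same genotype also differed from each other. Between Dnmt1KO replicates 1 and 2 the 9 factors differed by a median of 0.28 on the log2 scale, against 0.48 for all genes tested. Between the Dnmt1fl/fl replicates the median was 0.29 for the factors and 0.21 for all genes. The Dnmt1KO pair differed more than the Dnmt1fl/fl pair in 5 of 9 factors and in 75.0% of genes tested. From Dnmt1KO replicate 2 to replicate 1, Cebpb was higher by 1.25, Spi1 by 0.62, Klf2 by 0.36, Klf6 by 0.28 and Cebpa by 0.27 on the log2 scale, and the Maf value was -0.90. Klf4, Irf8 and Runx1 differed by 0.17, -0.17 and 0.02.

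Marker sums moved with the same sample. In Dnmt1KO replicate 1, where Cebpb and Spi1 were highest and Maf was lowest, 8 of 8 neutrophil markers in the table and 6 of 6 mesothelial and fibroblast markers were highest. There, 7 of 7 B cell markers, 5 of 5 dendritic cell markers and 7 of 8 resident peritoneal macrophage markers were lowest. The resident macrophage markers summed to 485 and 392 CPM in Dnmt1fl/fl and to 157 and 450 CPM in Dnmt1KO, and the dendritic cell markers to 35.5, 32.1, 18.4 and 43.4 CPM. All 8 resident markers had a log2 fold change below 0, with a median of -0.43. Of these 8, 2, Timd4 and Icam2, were lower in both Dnmt1KO samples than in both Dnmt1fl/fl samples, where 16.7% of all genes tested did not overlap in either direction. The mesothelial and fibroblast markers summed to 25.7, 34.3, 68.3 and 17.4 CPM. The monocyte markers summed to 7285, 7386, 7405 and 6916 CPM, and 4 of 7 were highest and 1 of 7 was lowest in Dnmt1KO replicate 1. Fn1 made up most of that sum, with 6411, 5933, 6123 and 5917 CPM. Other monocyte markers varied more, with Hp at 30.5, 141, 275 and 34.4 CPM and Ccr2 at 498, 682, 376 and 594 CPM. Cebpe, the C/EBP factor of granulocyte maturation, followed the order of Cebpb, with 2.78, 6.18, 8.89 and 2.46 CPM. Irf4, a factor of B cells and of some dendritic cells and macrophages, was lowest in Dnmt1KO replicate 1, with 40.2, 44.6, 16.4 and 46.9 CPM. The part of other cells in the levels of the 9 factors was not tested. Without Dnmt1KO replicate 1, 0 of 9 factors had an unadjusted edgeR p under 0.05, as did 2.73% of genes tested in that fit. Without Dnmt1KO replicate 2, Cebpb and Maf had one, at adjusted p-values of 0.13 and 0.18 in edgeR's quasi-likelihood test, in a fit where 27.6% of all genes passed the unadjusted limit and the lone Dnmt1KO sample was assumed to vary like the Dnmt1fl/fl samples.

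**Figure D3:**
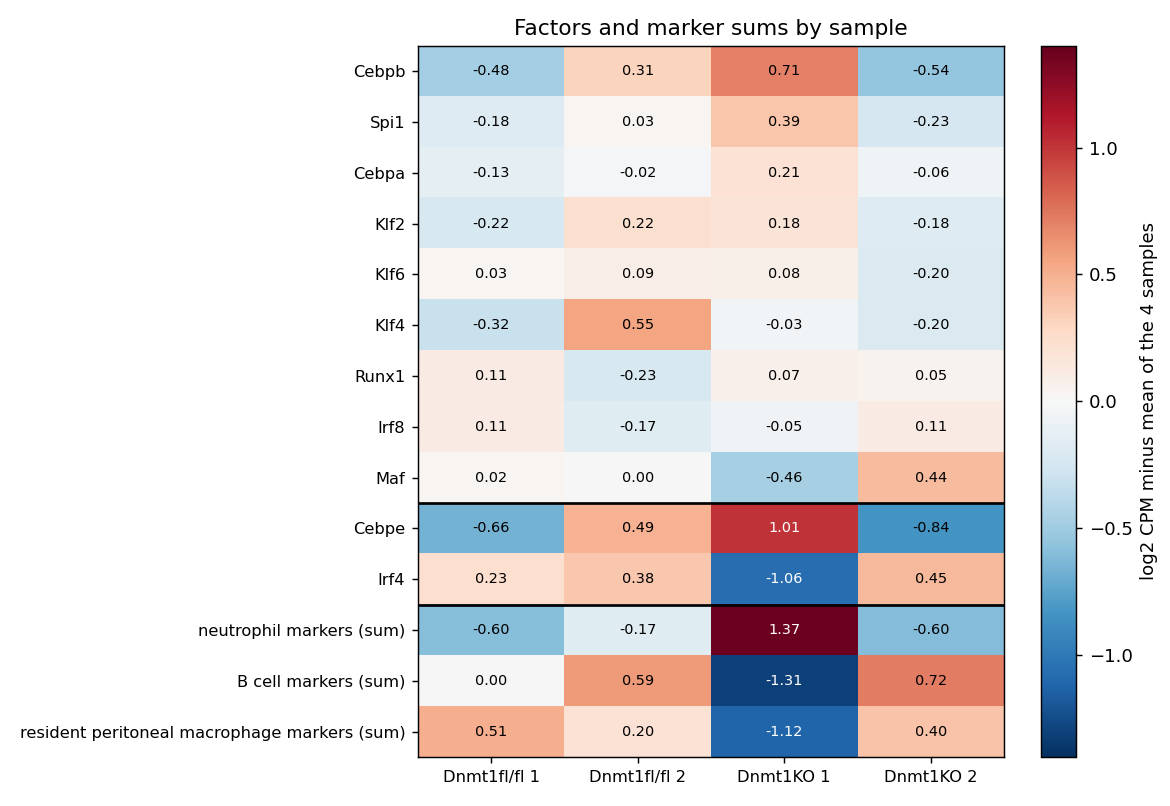
Log2 CPM of the 9 factors, of Cebpe and Irf4, and of 3 marker sums, each minus its mean over the 4 samples, with red above and blue below that mean. Dnmt1KO replicate 1 holds the highest Cebpb, Spi1 and neutrophil marker values and the lowest Maf, B cell and resident macrophage marker values.

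The remaining marker lists were low. The 6 T cell markers summed to 31.2, 52.2, 31.2 and 43.3 CPM, the 6 mast cell markers to between 8.94 and 12.7 CPM, and the 3 eosinophil markers in the table to between 7.67 and 14.1 CPM, with Epx and Prg2 not among the genes of the table. The 16 immediate early genes, which respond to handling of cells, summed to 1790, 1869, 2158 and 1326 CPM. Only the sum ranked the samples as Spi1 and Cebpb did, and the single genes were mixed. In Dnmt1KO replicate 1, 6 of the 16 were highest and 3 were lowest. Of the 16, only Fosl2, an AP-1 subunit, had an unadjusted edgeR p under 0.05, a limit that 0.279% of all genes tested passed. Fosl2 lay at 94.8 and 105 CPM in Dnmt1fl/fl and at 72.3 and 64.4 CPM in Dnmt1KO, with an adjusted p of 1.00. The log2 fold changes of Nr4a1, Jund and Btg2, the largest beside Fosl2 at a mean of at least 5 CPM, were -0.87, 0.49 and -0.47. Genotypes did not overlap in 3 of the 16, Fosl2, Btg2 and Egr1, all lower in Dnmt1KO, against 16.7% of all genes tested in either direction.

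Levels of different factors were compared per kilobase of exon, which removes the advantage of long transcripts. Cebpb had the highest level, with a mean of 271 CPM per kilobase and a range over samples from 174 to 413. Klf2 followed at 174, Cebpa at 124, Spi1 at 117 and Klf6 at 98.7 CPM per kilobase. A lower group held Irf8 at 30.7, Klf4 at 30.1 and Maf at 26.7, and Runx1 was lowest at 3.70 CPM per kilobase. Between neighbours in this order the ranges over the 4 samples did not overlap from Klf2 to Cebpa, from Klf6 to Irf8 and from Maf to Runx1, and the other neighbours overlapped. Cebpb stood at the 98.7th percentile of genes tested and Runx1 at the 42.5th. Over the longest transcript in place of all exons, Spi1, Maf, Irf8 and Runx1 came to 156, 34.6, 62.5 and 7.60 CPM per kilobase, which places Spi1 above Cebpa, at 125 CPM per kilobase over its longest transcript, and Maf above Klf4, and sets Irf8 farther from Klf4.

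Within their families the factors took different places. Cebpb and Cebpa together made up 87.6% to 91.0% of the summed level per kilobase of 6 C/EBP genes, and Klf2, Klf4 and Klf6 made up 73.4% to 81.2% of that of 13 KLF genes. Spi1 made up 41.1% to 56.9% of the level of 15 ETS genes. Runx1 exceeded Runx3 and Runx2 with 57.4% to 61.9% of the RUNX level. Irf8 was not the leading member of its family, since Irf5 took 38.2% to 47.5% of the level of 9 IRF genes and Irf8 10.4% to 15.7%. These shares use the length of all exons. Over the longest transcript Irf8 came to 62.5 in place of 30.7 CPM per kilobase and Runx1 to 7.60 in place of 3.70, so their shares depend on the length used. The ratio of Cebpb to Cebpa per kilobase was 1.61 and 2.58 in Dnmt1fl/fl and 2.89 and 1.46 in Dnmt1KO. The Dnmt1KO samples thus enclosed the Dnmt1fl/fl samples in this ratio.

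**Figure D4:**
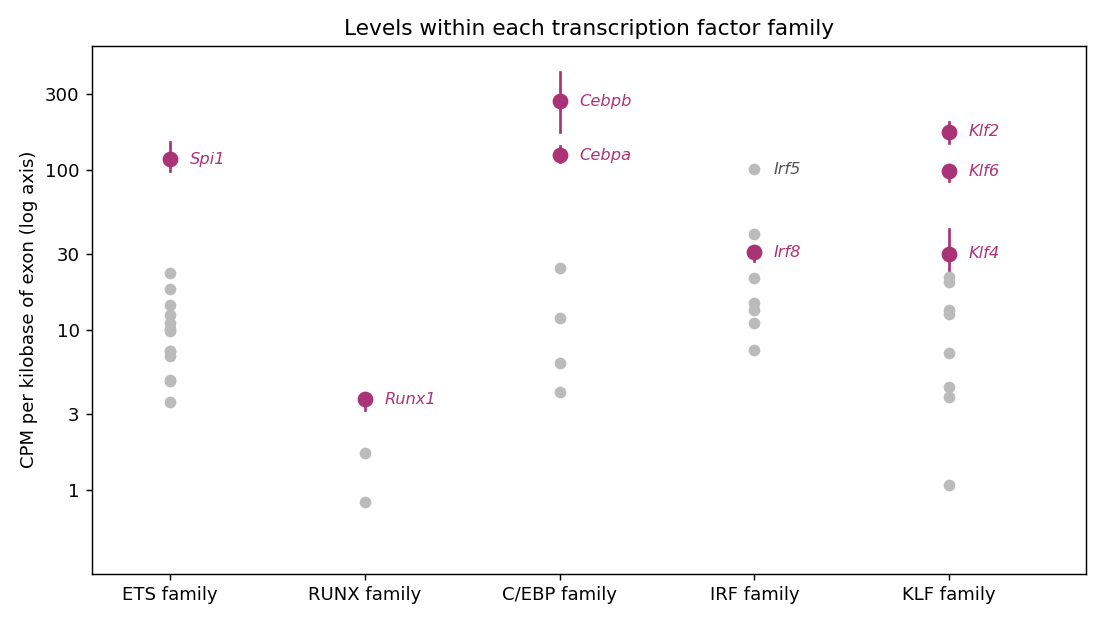
Mean level per kilobase of exon over the 4 samples, on a log axis, of 8 of the factors in purple, Maf left out, with lines from the lowest to the highest sample, and of other genes of their families in grey, for genes above 0.3 CPM per kilobase. Spi1, Runx1, Cebpb and Klf2 led their families, and Irf5 lay above Irf8.

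Relatives of the 9 factors were counted in the same way. Of 41 other genes tested from the ETS, C/EBP, MAF, KLF, IRF and RUNX lists, the last with its partner Cbfb and corepressors, 0 had an unadjusted p under 0.05 in edgeR, 6 were higher and 6 lower by at least 0.2 on the log2 scale, and 4 were higher and 4 lower without overlap of the genotypes, against 41.5% and 16.7% of all genes tested in either direction. Klf11 and Klf9 were among those higher, with 18.1 and 13.9 CPM in Dnmt1fl/fl against 23.9 and 21.1 CPM in Dnmt1KO for Klf11, and 58.3 and 56.9 CPM against 59.5 and 83.2 CPM for Klf9. Ets2, with 44.7 and 57.9 CPM against 44.1 and 24.4 CPM, and Cbfb, the shared partner of RUNX proteins, with 112 and 121 CPM against 103 and 105 CPM, were among those lower. The other relatives with the largest differences at a mean of at least 5 CPM overlapped between genotypes. Their log2 fold changes were 0.33 for Klf16, 0.33 for Cebpe, 0.25 for Ddit3, 0.09 for Cebpd, 0.19 for Irf5, 0.18 for Runx3 and 0.06 for the small MAF gene Mafk. They were -0.20 for Elf2, -0.18 for Gabpa, -0.13 for Mafg, -0.42 for Irf4, -0.23 for Irf7 and -0.19 for Runx2. Irf7, the interferon-induced IRF, varied widely within both genotypes, at 76.3 and 248 CPM in Dnmt1fl/fl and 205 and 71.8 CPM in Dnmt1KO.

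Of 21 other macrophage factors tested, 0 had an unadjusted p under 0.05, and 3 were higher and 8 lower by at least 0.2, a limit reached by 41.5% of all genes tested. Genotypes did not overlap in 2 that were higher and 2 that were lower, against 16.7% of all genes tested in either direction. Among factors at a mean of at least 5 CPM, the largest differences were those of Bhlhe41, with 32.5 and 29.5 CPM in Dnmt1fl/fl against 68.1 and 29.3 CPM in Dnmt1KO, Tfec, with 10.5 and 10.8 CPM against 14.5 and 15.2 CPM, and Egr2, with 64.0 and 45.5 against 47.4 and 32.4 CPM. Of these 3, Tfec, a macrophage relative of Mitf, had genotypes that did not overlap. Of 7 cofactors and regulators of turnover tested, 0 passed the same p and 2 were lower by at least 0.2, against the same 41.5%. These were Nfkbiz, a nuclear IκB protein, with 38.9 and 44.7 against 14.4 and 34.9 CPM, and Trib1, which promotes breakdown of C/EBPα, with 25.4 and 38.8 against 34.6 and 20.8 CPM. Crebbp, which encodes the coactivator CBP, followed with a log2 fold change of -0.09.

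Genes known as targets of the 9 factors were counted from a list of 22, of which 21 were tested. Only Lyz2, a target of PU.1 and C/EBP factors, had an unadjusted p under 0.05, with a log2 fold change of -1.10 (SE 0.32) and an adjusted p of 1.00 in edgeR's quasi-likelihood test, where 0.279% of all genes had an unadjusted p under 0.05. Since the Cre is driven by the LysM promoter, the Cre allele and the loss of Dnmt1 cannot be told apart in this value. By at least 0.2 on the log2 scale, 4 targets were higher and 3 lower, against 41.5% of all genes tested in either direction. Arg1, which encodes arginase and is a target of C/EBPβ, was at 1208 and 1830 CPM in Dnmt1fl/fl and at 4849 and 1132 CPM in Dnmt1KO. Its high sample was the Dnmt1KO replicate with the highest Cebpb, and its genotypes overlapped. Fcgr1, an Fc receptor gene, with a mean of 208 CPM in Dnmt1fl/fl and values of 334 and 184 CPM in Dnmt1KO, and Cd68, at 1487 and 1145 against 1835 and 1306 CPM, were likewise highest in that sample and overlapped. The median log2 fold change of the targets was -0.05.

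For each factor the nearest pattern over the 4 samples was sought among 64 other transcription factors and their partners, as the smallest root mean square difference of log2 CPM centred on its mean. Spi1 was nearest to Irf5, with a difference of 0.04, Irf8 to the corepressor gene Cbfa2t2 with 0.06, Runx1 to Tfeb with 0.07, Maf to Batf3 with 0.08 and Cebpa to Elk3 with 0.08. Klf2 and Klf4 were both nearest to the small MAF gene Mafg, with 0.09 and 0.16, Klf6 to Cbfb with 0.11 and Cebpb to Id2 with 0.15. With 4 samples these distances only describe the libraries at hand.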

How the data were processed

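RNA sequencing data of peritoneal macrophages from 2 Dnmt1fl/fl and 2 Dnmt1KO samples were analysed. Per the labels and the study's methods, the authors aligned paired-end reads with HISAT2 2.0.5 (build mm10) and counted them per gene with featureCounts 1.5.0-p3. The deposited values are estimated counts per gene, not normalized. Exactly whole numbers, with no tolerance, made up 72.6% to 76.4% of each sample's values, and the annotation, the use of strand and the sharing of reads between genes are not given in the sources used here. A shorter deposited table of 2749 genes, of the members only Klf4 among them, repeats rows of the whole table and was not used further. A gene enters the table of 13834 genes only with a value above 0 in all 4 samples.

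With edgeR 4.0.16 under R 4.3.3, rounded counts were filtered by filterByExpr, which left 12542 genes, and TMM gave scaling factors from 0.910 to 1.04. Dnmt1KO was set against Dnmt1fl/fl in a two-sided quasi-likelihood test without a replicate term, and p-values were adjusted by Benjamini-Hochberg over those genes. Counts varied between replicates by 28.9% (common dispersion 0.0837). A floor of 3 counts corresponds to 0.120 to 0.151 CPM and covers counting error only. With 2 against 2 samples, an exact two-sided permutation test cannot give a p below 0.333. Exon lengths and gene overlaps were taken from GENCODE M21 on GRCm38 by symbol (98.5% of genes matched), and upstream windows from RefSeq. Models were tested on simulated counts.

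The result for 1 related gene is not reported here, and it was left out of the gene lists. The 9 members, the gene lists and the tests were chosen with earlier results of these data known. Named genes were all members, and from each other list every gene with an unadjusted p under 0.05 and, of the others, the 3 largest log2 fold changes at a mean of at least 5 CPM, and for each member the factor with the nearest pattern. The leading relative of a family was also named where it was not a member. Results were recomputed with limma-voom (limma 3.58.1), DESeq2 1.42.0, different scalings and filters, a replicate block, removal of a length trend, and leaving out each sample. Deviations of same-numbered samples correlated at -0.35 over genes, so the numbers were not taken as pairs. Other calculations used Python 3.11.15.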

Additional observations from a re-analysis of the deposited data

How the results depend on the processing

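Of 90 log2 fold changes of the 9 factors under 10 alternatives that kept all 4 samples, 80 kept their direction and 10 reversed, with a lowest unadjusted p of 0.29 and a lowest adjusted p of 1.00. The reversals were all of values near 0. Maf became -0.0278 with limma-voom, -0.0229 with the block by replicate number and -0.0228 with the crossed pairing. Klf2 became 0.0061 with DESeq2's size factors, 0.007 without a filter, 0.0061 in DESeq2, 0.0094 in limma-voom, 0.004 under the replicate block and 0.0041 under the crossed pairing. Irf8 became -0.0099 with library totals alone, a scaling that moved the median of all genes to -0.06. The number of factors past 0.2 on the log2 scale was 1 in place of 2 in limma-voom, under the replicate block, under the crossed pairing and with library totals alone. With the length trend removed, without or with the replicate block, the number was 2 but Runx1 (0.25 and 0.24) took the place of Cebpb (0.13 and 0.09). The number whose genotypes did not overlap was 1 in place of 0 with library totals alone, where Klf6 was lower in Dnmt1KO and 16.5% of all genes did not overlap, and 1 with the length trend removed, where Cebpa was higher and 18.6% of all genes did not overlap. The causes were not tested.

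The replicate block left 0 factors past an unadjusted p of 0.05 and, beside the changes above, altered no call by p. The crossed pairing, chosen after seeing the data, called 3 of all genes at an adjusted p under 0.05 and 0 of the factors. Over the longest transcript, the levels of Spi1, Maf, Irf8 and Runx1 were 155.6, 34.55, 62.53 and 7.60 CPM per kilobase.

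Leaving out each sample in turn moved the log2 fold changes from -0.16 to 0.46 for Spi1, 0.01 to 0.28 for Cebpa, -0.52 to 0.73 for Cebpb, -0.47 to 0.42 for Maf, -0.21 to 0.24 for Klf2, -0.67 to 0.21 for Klf4, -0.26 to 0.0206 for Klf6, -0.0791 to 0.20 for Irf8 and -0.053 to 0.28 for Runx1. The number past 0.2 on the log2 scale ranged from 4 to 5, in fits where 42.1% to 72.4% of all genes passed that limit. Each factor had at least 920 counts in every sample. With 2 samples per genotype, the absence of a call does not show that a factor was equal in both.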
